A study of Mus musculus with 2 samples.

Results

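The 8 genes Mcpt8, Prss34, Cpa3, Fcer1a, Ms4a2, Cd200r3, Il4 and Hdc, which serve as markers of basophils and mast cells, were taken by symbol from a table of 12860 genes, and all 8 were found in it. They were compared between 1 bone marrow library of a P95H mouse and 1 of a WT mouse. The P95H mouse was a 14-week-old female carrying Srsf2 P95H on 1 allele (KI/+) and R26CreERT2. The WT mouse was a 12-week-old male with unaltered Srsf2 that, per its title, carried R26CreERT2 as well. Both were C57BL/6 mice treated with tamoxifen in vivo. R26CreERT2 is a Cre recombinase made from the broadly active Rosa26 locus and switched on by tamoxifen, so the change was not aimed at basophils. The comparison sets transcripts of unsorted marrow with the mutant splicing factor, expressed from its own locus, beside those of WT marrow. Genotype, sex, age and the individual mouse cannot be told apart, and no value below has a replicate. None of the 8 genes lies on a sex chromosome in the RefSeq annotation.

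Basophils are rare granulocytes made in the bone marrow, and mast cells are related cells that mature in tissues. Both carry the high-affinity receptor for IgE, store histamine and proteases in granules bound to a proteoglycan core, and release them when antigen cross-links the IgE on their surface. The receptor has an alpha chain that binds IgE (Fcer1a), a beta chain that amplifies the signal (Ms4a2) and a gamma chain (Fcer1g) that other Fc receptors of myeloid cells share. Interleukin 3 expands basophils, and GATA2 is a transcription factor that both lineages need.

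The 7 genes other than Hdc were all lower in P95H marrow, by ratios of 0.439 to 0.834, and Hdc was higher, by a ratio of 2.24. Ratios are of CPM (read counts divided by a scaled library size), P95H over WT, and brackets after a ratio hold its 95% counting interval, which covers counting error only and says nothing of the spread between mice. Each difference is log2(CPM + 1) of P95H minus that of WT, and the added 1 shrinks it for genes of low level. A difference of at least 1 in size is called 2-fold. By this rule 0 of the 8 genes were lower, where 2.1% of all genes were, and 1 of the 8, Hdc, was higher, where 1.76% of all genes were. At 1.5-fold, 4 of the 8 were lower (Cd200r3, Ms4a2, Mcpt8 and Prss34) beside 8.08% of all genes, and Hdc was higher beside 7.05%. All 7 others lay below 0, as did 50.3% of all genes. The median difference of the 7 was -0.74, beside -0.0035 over all genes. Il4 is in the table through the WT library alone, so it could only lie below 0, and its interval held 1. Without Il4 the median was -0.75.

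The promoters of 6 of the genes are shown because GATA factors act in basophils and mast cells and because Hdc differed from the rest. Each window runs from 250 bases before to 50 after the transcription start, 5′ to 3′ on the gene's strand, from RefSeq on GRCm38.p6. Capitals mark the GATA motif, searched on both strands in 4 forms. The first form is AGATAA (on the opposite strand it reads TTATCT), the second is TGATAA, the third is AGATAG and the last is TGATAG. The expression table carries no coordinates, and the windows were not measured in these mice.
Prss34, chr17:25298144-25298443, plus strand: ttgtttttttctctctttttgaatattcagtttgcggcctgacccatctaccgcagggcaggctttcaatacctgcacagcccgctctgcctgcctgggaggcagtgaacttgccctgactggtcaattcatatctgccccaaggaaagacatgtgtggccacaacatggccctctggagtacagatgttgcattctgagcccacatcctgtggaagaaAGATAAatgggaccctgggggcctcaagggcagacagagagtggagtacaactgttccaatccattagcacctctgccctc
Cpa3, chr3:20242132-20242431, minus strand: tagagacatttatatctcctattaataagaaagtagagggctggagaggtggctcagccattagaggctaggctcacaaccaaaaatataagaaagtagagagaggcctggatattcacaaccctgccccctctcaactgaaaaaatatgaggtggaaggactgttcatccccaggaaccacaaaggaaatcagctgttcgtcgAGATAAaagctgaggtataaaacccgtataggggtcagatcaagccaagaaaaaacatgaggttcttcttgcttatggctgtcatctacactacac
Ms4a2, chr19:11623670-11623969, minus strand: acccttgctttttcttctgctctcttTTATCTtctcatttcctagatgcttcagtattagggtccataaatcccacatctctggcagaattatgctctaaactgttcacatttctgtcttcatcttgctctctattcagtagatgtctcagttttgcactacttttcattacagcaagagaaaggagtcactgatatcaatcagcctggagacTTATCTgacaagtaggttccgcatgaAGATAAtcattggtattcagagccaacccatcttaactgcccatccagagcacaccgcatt
Cd200r3, chr16:44943428-44943727, plus strand: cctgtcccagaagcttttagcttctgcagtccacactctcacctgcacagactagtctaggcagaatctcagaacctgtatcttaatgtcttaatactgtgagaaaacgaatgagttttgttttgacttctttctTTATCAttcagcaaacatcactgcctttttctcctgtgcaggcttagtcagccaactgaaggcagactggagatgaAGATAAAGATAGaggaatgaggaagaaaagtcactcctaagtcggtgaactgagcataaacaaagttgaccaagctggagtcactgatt
Mcpt8, chr14:56085148-56085447, minus strand: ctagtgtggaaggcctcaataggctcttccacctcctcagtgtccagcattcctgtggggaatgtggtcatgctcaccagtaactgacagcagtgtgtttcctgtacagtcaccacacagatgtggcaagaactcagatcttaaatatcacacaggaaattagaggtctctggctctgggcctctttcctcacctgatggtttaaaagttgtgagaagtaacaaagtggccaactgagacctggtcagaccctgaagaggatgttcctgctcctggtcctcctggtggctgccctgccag
Hdc, chr2:126618629-126618928, minus strand: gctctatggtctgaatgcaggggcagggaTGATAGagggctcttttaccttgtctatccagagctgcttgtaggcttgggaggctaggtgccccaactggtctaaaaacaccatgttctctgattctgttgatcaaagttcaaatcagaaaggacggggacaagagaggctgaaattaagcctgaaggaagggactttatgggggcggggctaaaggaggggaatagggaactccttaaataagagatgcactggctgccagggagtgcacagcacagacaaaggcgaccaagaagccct

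Of the 8 genes, 7 had a GATA motif in a window and 5 had the form AGATAA, namely Prss34, Cpa3, Ms4a2, Cd200r3 and Fcer1a. Of the windows of genes in the table, 19.3% of 12550 held a GATA motif and 6.61% held AGATAA, and of all RefSeq windows of this length 29.8% and 11.2% did. In Prss34, Cpa3 and Cd200r3 a copy of AGATAA began at 31, 46 and 39 bases before the start. Ms4a2 had 3 copies, beginning at 224, 37 and 11 bases before the start, and in Cd200r3 an AGATAG followed AGATAA and shares no base with it. The Mcpt8 window held none of the 4 forms. The Hdc window held a single TGATAG, 221 bases before the start. The E-box CANNTG, which helix-loop-helix factors such as MITF bind, was in windows of 7 of the 8 genes, with Ms4a2 the exception, and in 64.2% of the windows of table genes. These matches describe letters and no binding was measured.

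**Figure D1:**
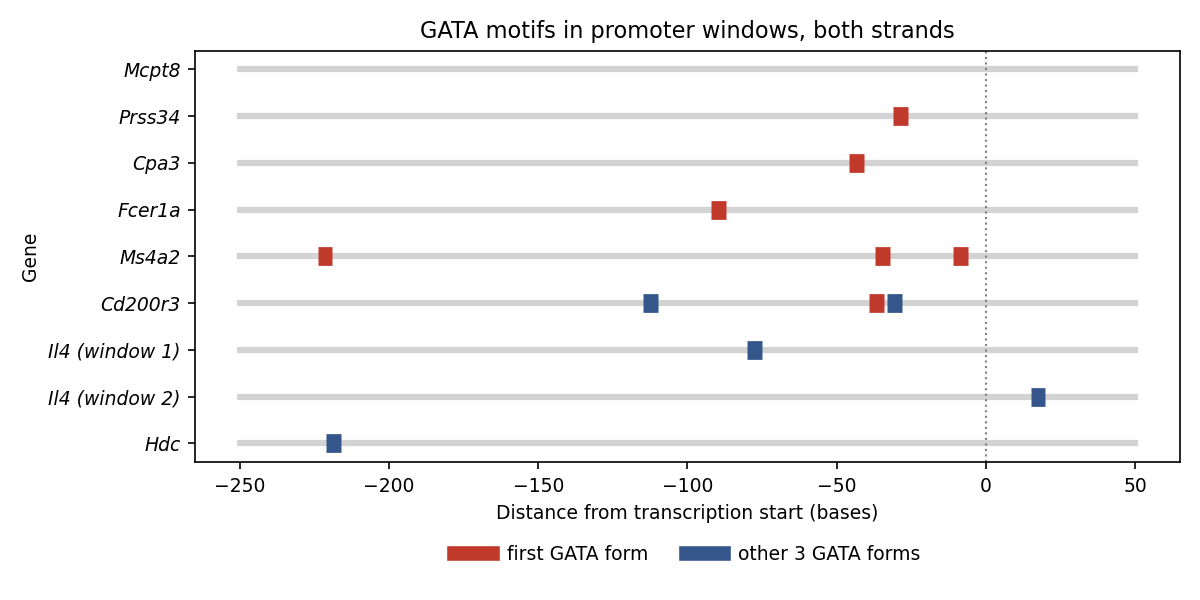
Positions of GATA motifs in the promoter windows, by distance from the transcription start in bases, 1 grey line per window (Il4 has 2). Red boxes are AGATAA and blue boxes the other 3 forms, on either strand. Red boxes lie within 50 bases before the start in 4 genes, and the Mcpt8 line is empty.

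The granule proteases carried most of the reads. Prss34, a serine protease of mouse basophils also called mMCP-11, had 3312 counts in P95H marrow and 6689 in WT marrow, or 83.4 against 139.7 CPM. The ratio was 0.597 (0.573 to 0.623). Mcpt8, a granzyme-like protease made by mouse basophils, had 1408 counts in P95H marrow and 2896 in WT marrow, or 35.5 against 60.5 CPM, and a ratio of 0.586 (0.550 to 0.625). The ratios of these genes differed by less than their counting intervals. Cpa3, a carboxypeptidase of mast cell and basophil granules that progenitors also express, had 830 counts in P95H marrow and 1525 in WT marrow, or 20.9 against 31.9 CPM. Its ratio of 0.656 (0.602 to 0.715) overlapped both. Per length of exon, Prss34 had the highest level of the 3, with 68.4 CPM per kb in P95H marrow and 114.5 in WT marrow, then Mcpt8 with 35.5 and 60.6 and Cpa3 with 13.8 and 21.0. Exon lengths are the union of all annotated exons of a gene, which can exceed the length of its main transcript. They came from GENCODE M21 on GRCm38 and may differ from the annotation used for counting.

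The receptor genes had fewer reads, and Fcer1a stood apart from the other 2. Fcer1a had 291 counts in P95H marrow and 421 in WT marrow, or 7.33 against 8.79 CPM. Its ratio of 0.834 (0.716 to 0.970) was the nearest to 1 of the 7. Ms4a2 had 114 counts in P95H marrow and 281 in WT marrow, or 2.87 against 5.87 CPM, and a ratio of 0.489 (0.390 to 0.610). The intervals of the alpha and the beta chain did not overlap. Cd200r3, an activating receptor of the CD200 receptor family on basophils and mast cells, had 75 counts in P95H marrow and 206 in WT marrow, or 1.89 against 4.30 CPM, and a ratio of 0.439 (0.333 to 0.575). It was the lowest ratio of the 8 genes, on few reads, and its interval overlapped that of Ms4a2. Ratios at or below 0.5 were found for 2 of the 8 genes, Ms4a2 and Cd200r3, and for 4.99% of all genes. Their differences of -0.83 and -0.88 missed 2-fold with 1 CPM added. With 0.1 CPM added, both were at least 2-fold lower, beside 4.61% of all genes.

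Il4, the cytokine that drives type 2 immune responses and that basophils make along with T cells, was near the limit of the data. It had 32 counts in P95H marrow and 59 in WT marrow, or 0.806 against 1.23 CPM. The ratio of 0.654 had an interval of 0.412 to 1.02, so a difference was not detectable at this depth. Every gene in the table has a CPM above 1 in at least 1 library, and Il4 met this in WT marrow alone, so its place in the table rests on the WT library. Intervals lay wholly below 1 for the 6 others, as for 32.8% of all genes.

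**Figure D2:**
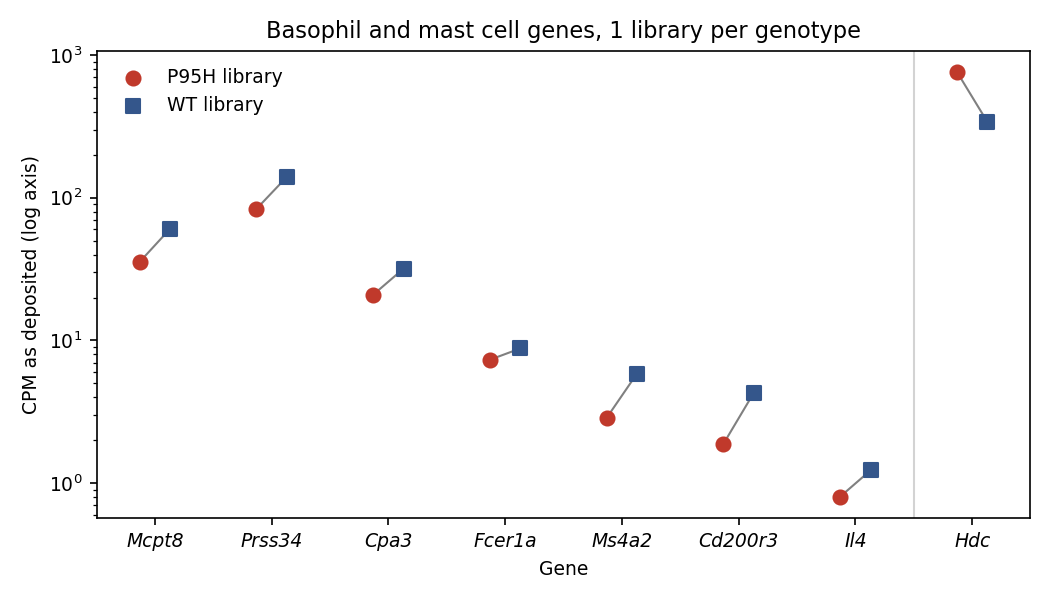
CPM as deposited (log axis) of each gene in P95H marrow (red circles, left) and the WT library (blue squares, right), joined by a line, with Hdc set apart at the right. The red circle is the lower for 7 genes and the higher for Hdc, at 760.3 against 340.0 CPM. Levels are not divided by gene length, so they compare libraries within a gene.

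Summed over the 7 genes, the P95H library held 6062 counts and the WT library 12077, a ratio of 0.605 (0.587 to 0.625). Leaving out each gene in turn gave ratios of 0.597 without Fcer1a to 0.616 without Prss34. Prss34 made up 54.6% of the 7-gene sum in P95H marrow and 55.4% in WT marrow, and Mcpt8 23.2% and 24.0%. In unsorted marrow, fewer cells of a type and less RNA per cell cannot be told apart.

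Proportions between genes within a library need no scaling, and gene length cancels in their quotient, P95H over WT. The P95H library had 42.5 Mcpt8 counts per 100 of Prss34 and the WT library 43.3, a quotient of 0.982 with a 95% interval of 0.910 to 1.06 (normal approximation on the log scale, counting error only). Cpa3 counts per 100 of Mcpt8 were 58.9 in P95H marrow and 52.7 in WT marrow, a quotient of 1.12 (1.01 to 1.24). The chains of the IgE receptor were in unlike proportion. Ms4a2 counts per 100 of Fcer1a were 39.2 in P95H marrow and 66.8 in WT marrow, a quotient of 0.587 (0.451 to 0.764). Cd200r3 counts per 100 of Fcer1a were 25.8 and 48.9, a quotient of 0.527 (0.389 to 0.714). Cd200r3 counts per 100 of Ms4a2 were 65.8 in P95H marrow and 73.3 in WT marrow, and the interval of the quotient, 0.637 to 1.26, held 1. Fcer1a stood apart from Mcpt8 too, with 20.7 counts per 100 of it in P95H marrow and 14.5 in WT marrow, a quotient of 1.42 (1.21 to 1.67). For Ms4a2 per 100 of Mcpt8 the interval of the quotient, 0.665 to 1.05, held 1.

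**Figure D3:**
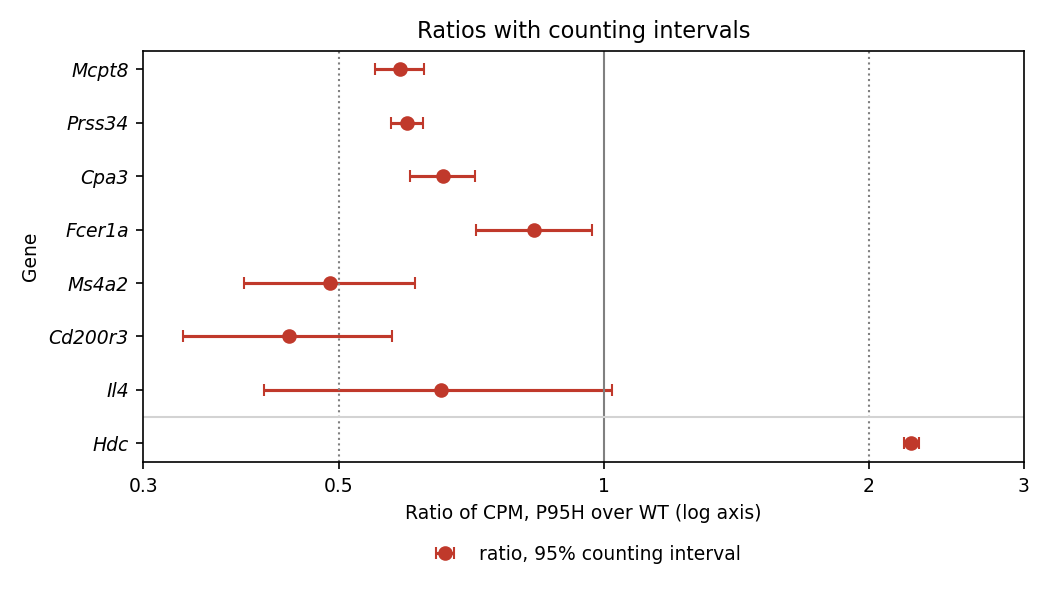
Ratio of CPM, P95H over WT (log axis), for each gene, with bars for the 95% counting interval and dotted lines at 0.5 and 2. The bars of Mcpt8, Prss34 and Cpa3 overlap and span 0.550 to 0.715, Fcer1a lies nearer to 1, the Il4 bar crosses 1, and Hdc lies beyond 2.

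Hdc, histidine decarboxylase, makes histamine and is also expressed by neutrophil precursors, so it was set apart. It had 30181 counts in P95H marrow and 16279 in WT marrow, or 760.3 against 340.0 CPM, with a ratio of 2.24 (2.19 to 2.28). Intervals lay wholly above 1 for 34.1% of all genes. The difference was 1.16. Per exon length its level was 119 CPM per kb in P95H marrow, the highest of the 8 genes there, and 53.2 in WT marrow, below those of Prss34 and Mcpt8. The order in WT marrow depends on the exon lengths used, 6389 bases for Hdc, 1220 for Prss34 and 998 for Mcpt8. Its counts per 100 of Mcpt8 were 2144 in P95H marrow and 562 in WT marrow, a quotient of 3.81 (3.57 to 4.08). With plain library totals in place of the scaled ones its difference was 0.97, short of 2-fold.

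The genes of neutrophil granules were also higher in P95H marrow. All 12 listed genes of neutrophil precursors lay above 0 (11 of 12 with plain totals, under which the all-gene median shifted by -0.17), with 2 at least 2-fold higher (0 with plain totals) and a median of 0.68. The iron-binding granule proteins Lcn2 and Ltf had ratios of 2.25 (2.24 to 2.26) and 2.23 (2.22 to 2.24). The P95H library had 7.46 Hdc counts per 100 of Lcn2 and the WT library 7.50, a quotient of 0.996 (0.976 to 1.01). For Ltf the values were 6.81 and 6.80, a quotient of 1.00 (0.982 to 1.02). Lcn2 and Ltf, secondary granule genes, had the largest differences of the 12 genes, which ran from 0.19 to 1.17. Quotients near 1 thus hold for these genes and not for the list. For Elane, a primary granule protease made earlier, there were 108 Hdc counts per 100 in P95H marrow and 70.8 in WT marrow. That quotient was 1.52 (1.48 to 1.56). Hdc counts per 100 of Csf3r, on the mature neutrophil list, were 93.9 and 76.5, a quotient of 1.23 (1.20 to 1.26). Among 9 genes of mature neutrophils all lay above 0 (8 of 9 with plain totals and with totals without the most abundant genes), led by the chemokine receptor gene Cxcr2 at 1.30, with S100a9 at 0.99 and Mmp8 at 0.96. The summed level of the precursor list was 55130 CPM in P95H marrow and 28290 in WT marrow. The part of these cells in the Hdc difference was not tested.

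Of 4 measured genes of histamine handling beside Hdc, 3 lay above 0 and 1 below. Slc18a2, which loads amines into granules and was chosen after its value was seen, had 606 counts in P95H marrow and 638 in WT marrow, a difference of 0.18. The histamine receptor gene Hrh2 had 804 against 463 counts and a difference of 0.99, and Hnmt, which methylates histamine for breakdown, 531 against 468 and 0.42. Slc22a3, an uptake transporter for amines, had 103 against 177 counts, for a ratio of 0.702 (0.545 to 0.900), and lay at -0.39. The other 4 of 8 genes on that list, Aoc1, Hrh1, Hrh3 and Hrh4, are not among the genes of the table.

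The gamma chain was higher, unlike the alpha and beta chains, and the signalling genes downstream of the receptor were mixed. Fcer1g, the gamma chain, had 13637 counts in P95H marrow and 10069 in WT marrow, a ratio of 1.63 (1.59 to 1.68). Fcer1a counts per 100 of Fcer1g were 2.13 in P95H marrow and 4.18 in WT marrow, a quotient of 0.510 (0.439 to 0.594). Of 21 listed genes of the receptor's signalling, 1 was lower by 2-fold or more, 0 higher by as much and 20 lay between. Their median was 0.14, but -0.05 with plain totals and -0.0015 with totals without the most abundant genes. The gene past 2-fold was Grap2, an adaptor of T cells and platelets as well, with 480 against 1591 counts and a difference of -1.39. The phospholipase gene Plcg1 was at -0.79 and Lat, a membrane adaptor of T cells and mast cells, at -0.71. The kinase genes Lyn and Syk, chosen after their values were seen, were at 0.44 and -0.08. Most of these genes are used by other leukocytes, so they do not track basophils alone.

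Further basophil genes diverged. Of 13 listed, 11 were measured, with 2 at least 2-fold lower (5 with plain totals), 1 higher and 8 between. Below 0 lay 6 of them and above 0 the other 5, and the summed ratio was 1.045 (1.024 to 1.068). The median of -0.66 was the highest value below 0, and the next value was 0.07, so the median sits at the edge of a gap. Itga2, the integrin chain detected as CD49b, had 43 counts in P95H marrow and 172 in WT marrow, a ratio of 0.302 (0.211 to 0.423), and natural killer cells and platelets express it too. The activation marker Cd69, found on many lymphocytes, was at -1.10, and the interferon-induced gene Ifitm1 was at 2.00 with 5288 against 1563 counts. Gata2 had 631 counts in P95H marrow and 1432 in WT marrow, for a ratio of 0.532 (0.483 to 0.584), with its difference at -0.87. This ratio overlapped those of Mcpt8 and Prss34, and Gata2 is also a gene of stem and progenitor cells. Il3ra, the specific chain of the interleukin 3 receptor, went the other way, with 623 against 446 counts and a ratio of 1.69 (1.49 to 1.91).

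Receptors for cytokines that act on basophils and mast cells were mixed, with 2 of 15 at least 2-fold lower, 3 higher (1 with plain totals) and a median of 0.64. Csf2rb, the chain that the receptors for interleukin 3, interleukin 5 and GM-CSF share, was among the 3 higher ones at 1.18, a gene chosen after its value was seen. The interleukin 13 receptor gene Il13ra1 was at 1.37. Il5ra, the eosinophil chain, was at -1.33 and Il7r, a lymphoid chain, at -1.26. Il1rl1, the receptor for interleukin 33 on basophils, mast cells and innate lymphoid cells, had 578 against 1159 counts and a ratio of 0.602 (0.543 to 0.665), within the range of the granule proteases. Of 14 transcription factor genes of these lineages, 0 passed 2-fold, with Gata2 lowest, the dendritic cell and monocyte factor gene Irf8 at -0.69 and the myeloid factor gene Spi1 at 0.66. With plain totals and with totals without the most abundant genes 1 passed.

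Markers that define mature mast cells were mostly outside the table. Of 16 listed, 5 were measured. The 11 others included the chymases and tryptases Cma1, Mcpt1, Mcpt2, Mcpt4, Mcpt9, Tpsb2, Tpsab1 and Tpsg1 and the receptor genes Mrgprb1 and Mrgprb2, which were not analysed here. Of the 5 measured genes, 4 lay below 0 and 1 above, with a median of -0.52, and 0 passed 2-fold. Mitf, chosen after its value was seen, was above 0 at 0.28, with 547 against 533 counts and a ratio of 1.24 (1.10 to 1.40). Kit, the stem cell factor receptor of mast cells and progenitors, had 1499 against 2109 counts and a ratio of 0.857 (0.802 to 0.916). Hpgds, which makes prostaglandin D2, was at -0.78 with 189 against 427 counts, the secretory GTPase gene Rab27b at -0.68 and Slc45a3 at -0.52. Slc45a3 was above 1 CPM in WT marrow alone, so it could only lie below 0, and the list median is its value. Mcpt8 and Prss34, the defining basophil proteases, were measured, and none of the listed chymases and tryptases of mast cells was.

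Eosinophils, another granulocyte lineage close to basophils, showed lower values too. All 11 listed genes lay below 0, with 4 at least 2-fold lower (9 with plain totals) and a median of -0.92. Their summed level was 2937 CPM in P95H marrow and 5589 in WT marrow. The granule genes Prg2 and Epx, chosen after their values were seen, had ratios of 0.534 (0.529 to 0.539) and 0.528 (0.519 to 0.537), below those of Mcpt8 and Prss34. Prss34 counts per 100 of Prg2 were 6.22 in P95H marrow and 5.56 in WT marrow, a quotient of 1.12 (1.07 to 1.17). Mcpt8 per 100 of Epx gave 7.99 and 7.20, a quotient of 1.11 (1.04 to 1.19). Ear10, an eosinophil ribonuclease gene with near-identical copies, had 5 counts in P95H marrow and 1412 in WT marrow. It was above 1 CPM in WT marrow alone, so it could only lie below 0. Il5ra was at -1.33 and Ear2 at -1.25. Their part in the basophil values was not tested.

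Genes of T cells, which also make Il4, were lower as well. All 10 listed T cell genes lay below 0 and 0 passed 2-fold, with a median of -0.41. Il4 was at -0.31, with an interval of the ratio that held 1. Cd3e and Zap70, chosen after their values were seen, had 0.98 CPM each in P95H marrow and 1.65 and 1.59 in WT marrow. Like Il4, these genes are in the table through the WT library alone, so they could only lie below 0. Cd28 was at -0.79, Cd247 at -0.46 and Lck at -0.45. Their summed level was 35.6 CPM in P95H marrow and 52.8 in WT marrow, a ratio of 0.673 (0.631 to 0.719), and their part in the Il4 value was not tested.

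**Figure D4:**
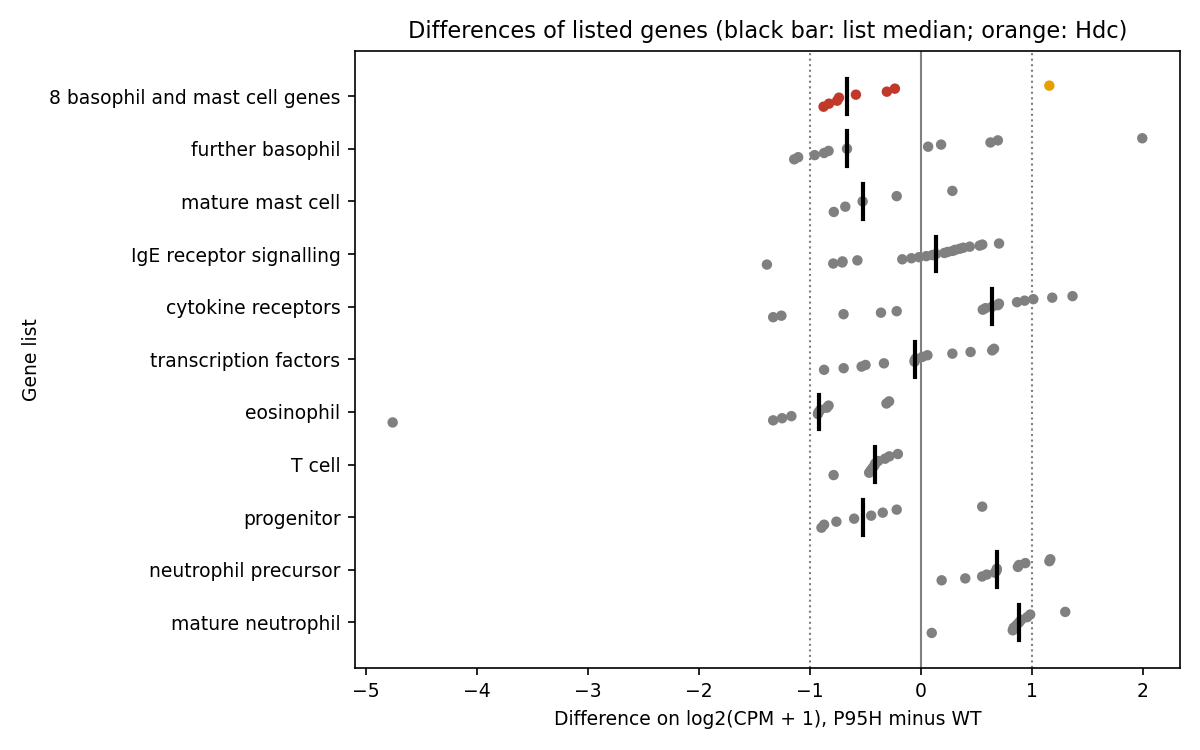
Differences on log2(CPM + 1), P95H minus WT, of each measured gene, by list, with black bars for list medians and dotted lines at a 2-fold difference. The 7 red points lie left of 0 with Hdc (orange) at 1.16, the eosinophil and T cell points lie left of 0, and the neutrophil points lie right of it.

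By gene order in the RefSeq annotation, the nearest measured neighbours included close relatives on the other side of 0. Mcpt8 sits beside Ctsg, a neutrophil protease gene of the same granzyme and chymase cluster, which was at 0.69 against -0.75 for Mcpt8. Ms4a2 sits between Ms4a6d, at 2.42 with 773 against 135 counts, and Ms4a3, at 0.59, both of its own family. Beside Cd200r3, Cd200r4 of the same family had 64 counts in both libraries and a difference of 0.16. The interval of its ratio, 0.84 to 1.73, held 1. The nearest measured neighbours of Il4, Kif3a and Rad50, had ratios of 0.689 (0.591 to 0.803) and 0.766 (0.724 to 0.810), which lay within the wide interval of Il4. Of 41 listed relatives of the 8 genes, 18 were measured, with 2 at least 2-fold lower, 1 higher and a median of 0.38. The B cell gene Ms4a1 was at -2.07, the cytotoxic protease gene Gzma at -1.38, Ms4a6b at 0.93 and Cd200, the ligand of the Cd200r1 receptor, at -0.72. Cd200 was above 1 CPM in WT marrow alone, so it could only lie below 0. These relatives serve other cell types, and families with similar sequences may share reads.

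Over the whole table, 42366695 counts were listed for the P95H library and 44733445 for the WT library, so 1 count is worth 0.0252 and 0.0209 CPM. Srsf2 itself was at 231 CPM in P95H marrow and 225 in WT marrow, and since the change edits the gene in place its level checks no label. At least 2-fold differences numbered 226 higher and 270 lower genes, and 134 and 463 with plain totals, so the share of higher genes was 45.6% and 22.4%.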

How the data were processed

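Stranded libraries were made from rRNA-depleted total RNA of unsorted marrow with 9 PCR cycles and read as 75 bp pairs, per the labels' protocols. STAR 2.5.3a, featureCounts, edgeR, Picard 1.96, cutadapt, Trim Galore and mm9 appear without roles in the submitters' processing notes. The sources used here do not say whether counting used strand, which leaves genes that overlap others uncertain. The authors deposited raw read counts per gene, per the file headers, and beside them CPM, a scaled signal whose columns sum to 1067265 (P95H) and 934268 (WT); the divisors are 0.937 and 1.07 times the listed totals. The file has 1 library per genotype, so there was no test and no p-value.

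Differences used log2(CPM + 1). Ratio intervals are exact conditional binomial (Clopper-Pearson) at 95%. Without molecular identifiers, they cover counting error only. The 8 genes and the 16 other lists were chosen with earlier results of these data known. Text names the 8 genes, Fcer1g, Gata2, Kit, Il3ra and up to 3 genes per list (5 of their relatives) with the largest absolute difference. Other names were picked after seeing values, as stated beside them, except genes named as not measured, as neighbours, or as proportions. No likeness of pattern was computed, since 2 libraries give 1 ratio per gene. Gene order came from RefSeq GRCm38.p6, which matched 12531 Entrez numbers (97.4%), and lengths from GENCODE M21, not the submitters' build. Python 3.11.15, scipy 1.17.1 and edgeR 4.0.16 (TMM) were used. The steps were tested on simulated counts. A gene that the naming rule takes is not reported here.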

Additional observations from a re-analysis of the deposited data

How the results depend on the processing

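The sign of each of the 8 differences was the same under all 7 alternatives of pseudocount and scaling (the median-of-ratios factors were added after seeing the data). A changed pseudocount cannot turn a sign. TMM, median centring and median-of-ratios factors shifted the all-gene median by only -0.0041, 0.0035 and 0.0034. Plain totals and totals without the most abundant genes could only move the 7 lower genes further below 0. The constant signs therefore add little. Il4 is in the table through the WT library alone, so its constant sign adds nothing. The median of the 7 genes other than Hdc was -0.47 with a pseudocount of 5, -0.93 with plain totals, -0.88 when haemoglobin and the 20 most abundant genes left the totals (all-gene median shifted by -0.13) and -0.66 over all 8 genes. Their summed ratio was 0.53 with plain totals and 0.55 (0.5498) without the most abundant genes. At least 2-fold lower were 2 of the 8 genes with a pseudocount of 0.1 and 1 each with plain totals and without the most abundant genes, and 4 at 1.5-fold, where 8.08% of all genes were lower and Cpa3 at -0.58 was just outside. Hdc alone was higher, and 0 were with plain totals or at 4-fold. Over all genes, 367 were higher and 593 lower with a pseudocount of 0.1, 125 and 107 with 5, 134 and 463 with plain totals, 906 and 1039 at 1.5-fold and 31 and 24 at 4-fold; 477 were lower without the most abundant genes and 154 where a minimum of 10 CPM applied. The medians of receptor signalling and lipid mediator genes turned to -0.054 and -0.056 with plain totals and to -0.0015 and -0.0042 without the most abundant genes. The cause was not tested beyond the construction of each setting. No paired analysis was possible because each genotype has 1 library, and no replicate could be left out.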

Other observations

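Genes that store and release granule contents were mostly higher in P95H marrow, and most are shared with neutrophils. Of 14 measured, 10 lay above 0 (9 with plain totals), 1 was at least 2-fold higher (0 with plain totals) and the median was 0.27. Ctsc, the peptidase that activates granule serine proteases, had 7650 counts in P95H marrow and 4333 in WT marrow and a difference of 1.08, while the granule protease inhibitor gene Serpinb1a was at 0.82 and the fusion protein gene Stx3 at -0.67. Srgn, the proteoglycan that binds granule proteases, chosen after its value was seen, had 66578 against 56325 counts and a difference of 0.51.

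Genes of lipid mediators split evenly, with 4 of 8 on each side of 0. The leukotriene genes Alox5ap and Alox5 were at 1.07 and 0.80, while Alox15, a lipoxygenase abundant in mouse eosinophils, was at -0.85. Of 8 progenitor genes, 7 lay below 0 and 0 passed 2-fold (2 with plain totals), with Angpt1 at -0.89. Of 5 measured genes of group 2 innate lymphoid cells, 4 lay below 0 and 1 was at least 2-fold lower, with a median of -0.21 and a summed ratio of 0.530 (0.495 to 0.567). Most of the sum came from Il7r and Il1rl1, with 440 and 578 of 1189 counts in P95H marrow and 1334 and 1159 of 2707 in WT marrow. Il7r was at -1.26 and Il1rl1 at -0.70, while Areg had 45 counts in P95H marrow and 37 in WT marrow, with an interval of the ratio, 0.928 to 2.33, that held 1. Intervals of Icos (0.583 to 1.10) and Rora (0.651 to 1.33), chosen after their values were seen, held 1 too. Areg was above 1 CPM in P95H marrow alone, so it could only lie above 0. Irf1, near Il4, was at 0.07, below 0 with plain totals.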
